A study of Mus musculus with 8 samples.

Results

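The genes Flg, Flg2, Hrnr, Lor, Krt78 and Tchhl1 of the outer epidermis are described as they read in the tape-stripped dorsal skin of mouse embryos with and without corneodesmosin in the epidermis. They are 6 of the 5080 genes that carry a symbol in the authors' deposited table of changed probe sets, which holds 5460 of the 33793 probe sets of the array. A probe set is the group of short probes that together read 1 gene. The table was chosen on the KO minus WT comparison itself, and its probe sets had adjusted p-values below 0.05 and changed by more than 0.5 on the log2 scale. The KO and WT values of the 6 genes are therefore a description, with no test. The table's size limit fell closest to Lor, at −0.53, and genes just outside it carry no name in the files used here.

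The KO embryos were KRT14-Cre(tg/0)/Cdsnfl/fl and the control (WT) embryos KRT14-Cre(tg/0)/Cdsnwt/wt, 4 of each, at stage E18.5 on a background given as C57B/6J. Both genotypes thus carried the keratin 14-driven Cre recombinase, which acts in the basal cells of the epidermis and hair follicles, and loss of Cdsn in the epidermis is lethal at birth. All 8 skins were stripped with adhesive disks and then kept for 4 h on culture medium, so no unstripped skin was compared. Each array read the RNA of the whole skin of 1 embryo, and the labels give neither litter nor sex, so the spread given is that between these embryos.

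Terminally differentiating keratinocytes fill with keratin filaments, pack proteins into keratohyalin granules and replace their membrane with a cross-linked cornified envelope. Profilaggrin (Flg), filaggrin family member 2 (Flg2) and hornerin (Hrnr) are long repeat proteins of the granules with a calcium-binding S100-type start, and the filaggrin released from the first bundles keratin and is later broken down to amino acids that hold water. Loricrin (Lor) is the main protein of the cornified envelope, and keratin 78 (Krt78) is a type II keratin of the layers above the basal one. Trichohyalin-like 1 (Tchhl1) belongs to the same fused S100-type family as Flg and is less well studied. In bulk skin, fewer granular cells and less RNA per granular cell cannot be told apart.

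The sequences just before the start of the 6 genes are shown because 4 of them hold a match to TGANTCA. These letters were searched for as an element of the AP-1 transcription factors, a family long studied at the loricrin and filaggrin promoters. The match read TGAATCA in Flg, Flg2 and Tchhl1 and TGAGTCA in Lor, and whether AP-1 binds any of them was not tested. They were taken from RefSeq on GRCm38.p6, where all 6 genes matched, and each line gives the last 120 bases before the start, 5′ to 3′ on the strand of the gene. Capitals mark a TATA box (TATAAA), a match to TGANTCA (N is any base) or a GATA element (AGATAA), each found on either strand. Only these exact letters were searched, so other forms of a TATA box, such as tatataag in Flg2, were left unmarked.
Flg (chr3:93273426-93273545, + strand): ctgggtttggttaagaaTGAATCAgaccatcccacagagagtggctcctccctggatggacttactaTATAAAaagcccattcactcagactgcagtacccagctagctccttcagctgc
Flg2 (chr3:93197153-93197272, + strand): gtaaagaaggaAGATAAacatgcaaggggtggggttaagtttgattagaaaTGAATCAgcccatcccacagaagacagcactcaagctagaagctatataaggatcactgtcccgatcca
Hrnr (chr3:93319629-93319748, + strand): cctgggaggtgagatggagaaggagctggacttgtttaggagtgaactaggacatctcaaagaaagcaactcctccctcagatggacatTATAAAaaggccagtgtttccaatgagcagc
Lor (chr3:92083143-92083262, - strand): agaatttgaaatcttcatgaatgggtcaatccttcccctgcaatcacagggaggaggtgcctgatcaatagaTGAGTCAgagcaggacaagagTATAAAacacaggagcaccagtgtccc
Krt78 (chr15:101954288-101954407, - strand): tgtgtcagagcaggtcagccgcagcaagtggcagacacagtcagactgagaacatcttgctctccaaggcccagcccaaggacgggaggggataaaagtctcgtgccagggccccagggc
Tchhl1 (chr3:93468634-93468753, + strand): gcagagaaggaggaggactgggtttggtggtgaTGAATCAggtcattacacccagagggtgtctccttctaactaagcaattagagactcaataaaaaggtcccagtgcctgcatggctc

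Within 250 bases before the start, TGANTCA was found in Flg, Flg2, Lor and Tchhl1, and in 6.75% of all 32851 RefSeq promoters of that length. It began 103 bases before the start in Flg, 69 in Flg2, 48 in Lor and 87 in Tchhl1. Aligned on the match with 10 further bases on each side and no gap, Flg and Flg2 had 23 of 27 bases in common. Either had 17 in common with Tchhl1 and 14 with Lor. TATAAA was found in Flg, Hrnr and Lor, against 12.4% of all promoters, and AGATAA in Flg2 alone of the 6, against 9.99%. The grainyhead-like core (CCGGTT), in 5.62% of all promoters, and the Sp and Krueppel-like box (GGGCGG), in 32.7%, were in 0 of the 6. No match to TGANTCA was found before Hrnr and Krt78. Whether a match bears on the direction of any of the 6 genes was not tested. A match describes these letters and not a binding site.

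Cdsn, the targeted gene, read 8.09, 8.51, 8.0 and 8.91 in log2 intensity on KO arrays 1 to 4, against 11.76, 11.82, 11.69 and 12.10 on the WT arrays. The labels and the genotypes thus ran the same way on every array. Array medians were 4.81 to 4.88 in KO and 4.70 to 4.80 in WT, and KO replicate 3 and WT replicate 1 stood apart from the rest of their groups on the first and second principal component. By limma with Benjamini-Hochberg adjustment at 0.05, 21.3% of all probe sets changed, with 5138 rises and 2056 falls, so that 71.4% of the changes were rises. Centring each array on its median gave 2965 rises and 3075 falls, a share of 49.1% rises. That centring moved the median log2 difference of the array from 0.09 to −0.02. The authors' criteria were met by 4.40% of probe sets as lower and 11.8% as higher, and the 6 genes were taken from these.

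Flg, Flg2, Hrnr, Lor and Krt78 were all lower in KO skin, at 51.7% to 69.2% of their WT level on the linear scale, and Tchhl1 was higher, at 157%. All 6 genes had KO and WT values free of overlap, as had 25.0% of all probe sets, 7.43% with KO lower and 17.6% with KO higher. Since the contrast chose the genes, nothing is read from that count. Each gene had 1 probe set in the table, of 17 to 22 probes.

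Flg, whose product gives filaggrin, read 12.23, 12.21, 12.45 and 12.11 in log2 intensity on KO arrays 1 to 4 and 12.78, 12.69, 12.89 and 12.93 on WT arrays 1 to 4. The highest KO value, in replicate 3, lay 0.24 below the lowest WT value. The means were 12.25 ± 0.15 (SD, n = 4) and 12.82 ± 0.11 (SD, n = 4), a difference of −0.57 ± 0.12 (SE), or 67.2% of the WT level.

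Flg2, a second filaggrin-type protein of the granular layer, read 9.05, 8.91, 9.32 and 9.08 on the KO arrays and 10.09, 9.94, 10.20 and 9.94 on the WT arrays. It had the widest separation of the 6 genes, with a gap of 0.62 between the groups. The difference was −0.95 ± 0.12 (SE; KO 9.09 ± 0.17 and WT 10.04 ± 0.12, SD, n = 4 each), or 51.7% of the WT level.

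Hrnr, the gene of hornerin, read 11.55, 11.36, 11.81 and 11.47 on the KO arrays and 12.28, 12.20, 12.30 and 12.30 on the WT arrays. The WT embryos lay close together, within 0.11, while the KO embryos spread over 0.46. The difference was −0.72 ± 0.12 (SE; KO 11.55 ± 0.19 and WT 12.27 ± 0.05, SD, n = 4 each), or 60.7% of the WT level.

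Lor, the gene of the main envelope protein, read 12.04, 12.07, 12.32 and 12.21 on the KO arrays and 12.56, 12.56, 12.59 and 13.05 on the WT arrays. WT replicate 4 was far above the other 3 WT embryos, which lay within 12.56 to 12.59. The difference was −0.53 ± 0.14 (SE; KO 12.16 ± 0.13 and WT 12.69 ± 0.24, SD, n = 4 each), and −0.41 without WT replicate 4. The log2 values of Flg, Hrnr and Lor lay near the top of the scale, where the highest value on an array was 13.68 to 13.92, and whether bright spots understate a change was not tested.

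Krt78, the suprabasal keratin, read 8.97, 8.77, 8.97 and 8.90 on the KO arrays and 9.34, 9.59, 9.51 and 9.81 on the WT arrays. The KO embryos were close together and the WT embryos spread more, with WT replicate 4 again the highest. The difference was −0.66 ± 0.13 (SE; KO 8.90 ± 0.09 and WT 9.56 ± 0.20, SD, n = 4 each), or 63.3% of the WT level.

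Tchhl1 read 3.41, 3.90, 3.79 and 3.05 on the KO arrays and 2.77, 2.97, 2.80 and 3.02 on the WT arrays. The groups came within 0.03 of each other, between KO replicate 4 and WT replicate 4, and the KO embryos spread over 0.85. The difference was 0.65 ± 0.18 (SE; KO 3.54 ± 0.39 and WT 2.89 ± 0.12, SD, n = 4 each). Its signal was low: the mean over the 8 arrays, 3.21, lay below those of all but 23.0% of probe sets, and no detection value was used here. It did not pass an adjusted p under 0.05 in 9 of the 16 alternative settings that kept it (limma), centring among them.

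**Figure D1:**
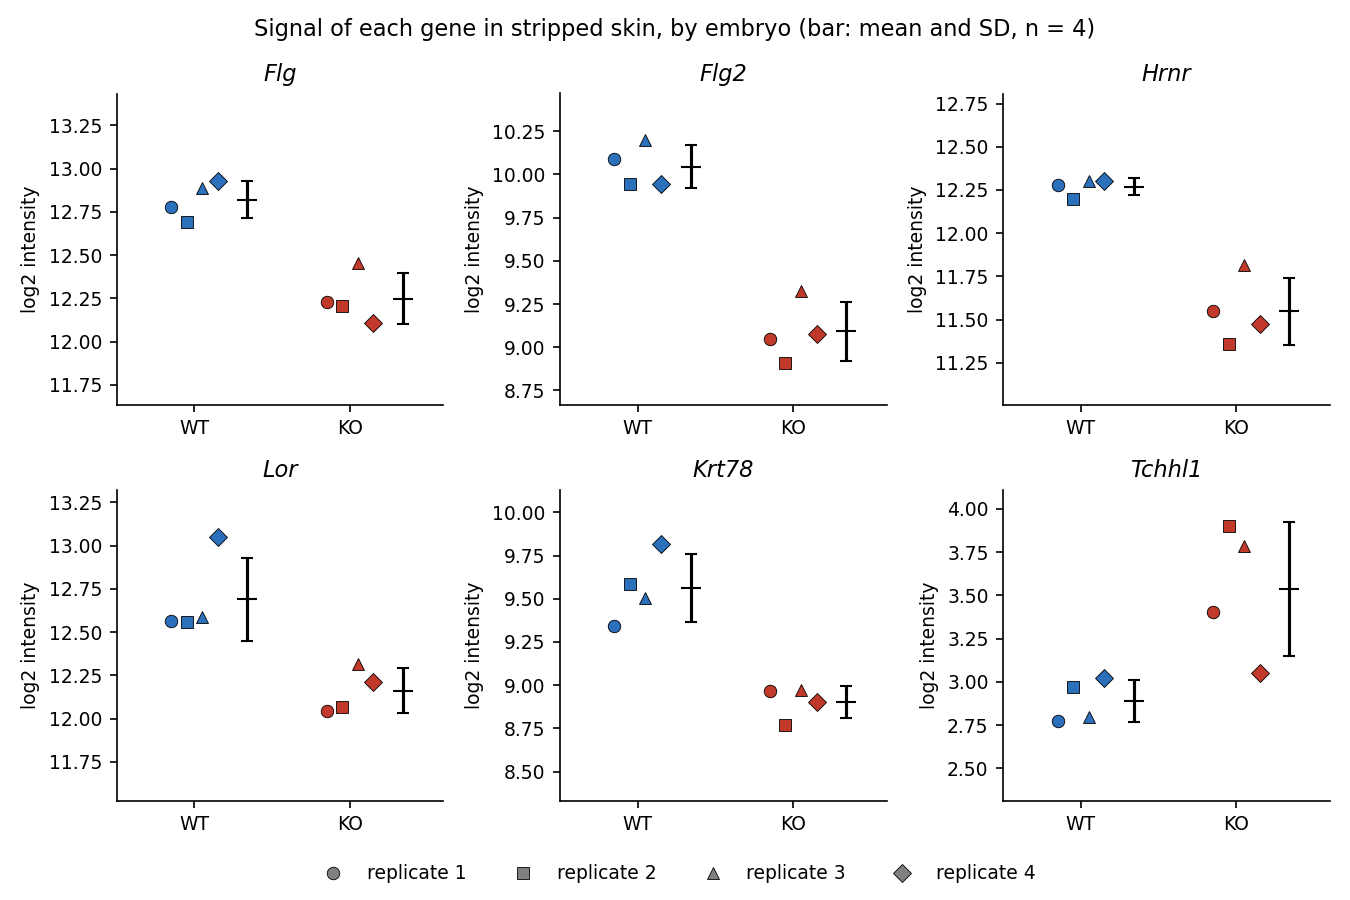
Log2 intensity (vertical axis, each panel spanning the same 1.8 units) of each gene in the 4 WT and 4 KO embryos, 1 symbol per embryo, with the mean and SD beside each group. Flg, Flg2, Hrnr, Lor and Krt78 lie lower in every KO embryo than in every WT embryo, and Tchhl1 higher, with KO replicate 4 at 3.05 next to WT replicate 4 at 3.02.

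By size, the differences ran from Flg2 (−0.95) through Hrnr (−0.72), Krt78 (−0.66) and Flg (−0.57) to Lor (−0.53). Each step between neighbours from Hrnr to Lor was smaller than the SE of either gene, 0.12 to 0.14, while Hrnr and Lor differed by more than either SE. Flg2 also differed from Hrnr by more than either SE. These are SEs of single genes and no difference between genes was tested, so the order is a description. Centring the arrays, quantile normalization and cyclic loess made the 5 lower genes lower still, down to −0.70 for Flg, −1.10 for Flg2, −0.85 for Hrnr, −0.66 for Lor and −0.82 for Krt78, and brought Tchhl1 down to 0.52. No setting turned the direction of any of the 6.

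**Figure D2:**
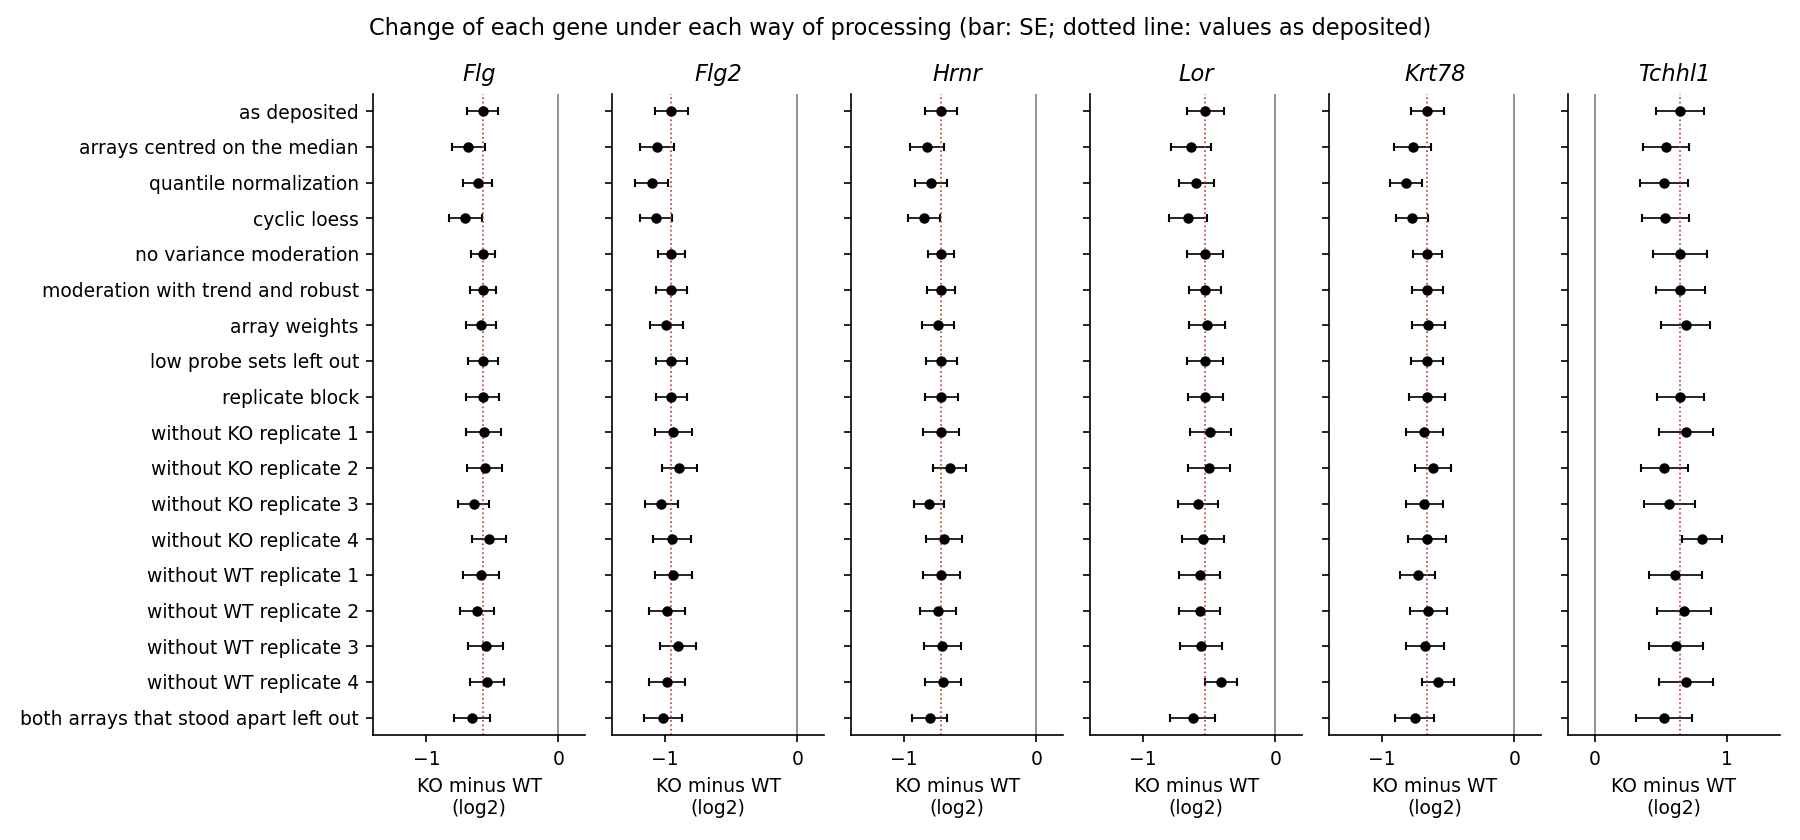
KO minus WT difference in log2 intensity (horizontal axis) of each gene under each way of processing (vertical axis), with its SE; the dotted line marks the value as deposited. The 5 lower genes stay between −1.10 and −0.41 and Tchhl1 between 0.52 and 0.81.

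Embryos of the same genotype also differed from each other. The size of that spread enters the adjusted p by which the table was chosen, so the values of single embryos are given as a description. Among the KO embryos, replicate 3 had the highest value of all 5 lower genes, 0.21 above the genotype mean for Flg, 0.23 for Flg2, 0.27 for Hrnr, 0.16 for Lor and 0.07 for Krt78. For Krt78 it was level with replicate 1 at 2 decimals. The same embryo was highest among KO in 33.6% of the 1487 probe sets that were lower in the authors' deposited table. It had the lowest KO value in 14 of the 18 cytokine and growth factor genes that rose and are described below, and in 39.6% of the 3973 probe sets that were higher in the authors' deposited table. Its Cdsn value, 8.0, was the lowest of the 4. Among the WT embryos, replicate 4 was highest in Flg, Hrnr, Lor and Krt78, for Hrnr level with replicate 3 at 2 decimals, and in 27.9% of the lower probe sets of the authors' deposited table. Both embryos were picked out after their values were seen.

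**Figure D3:**
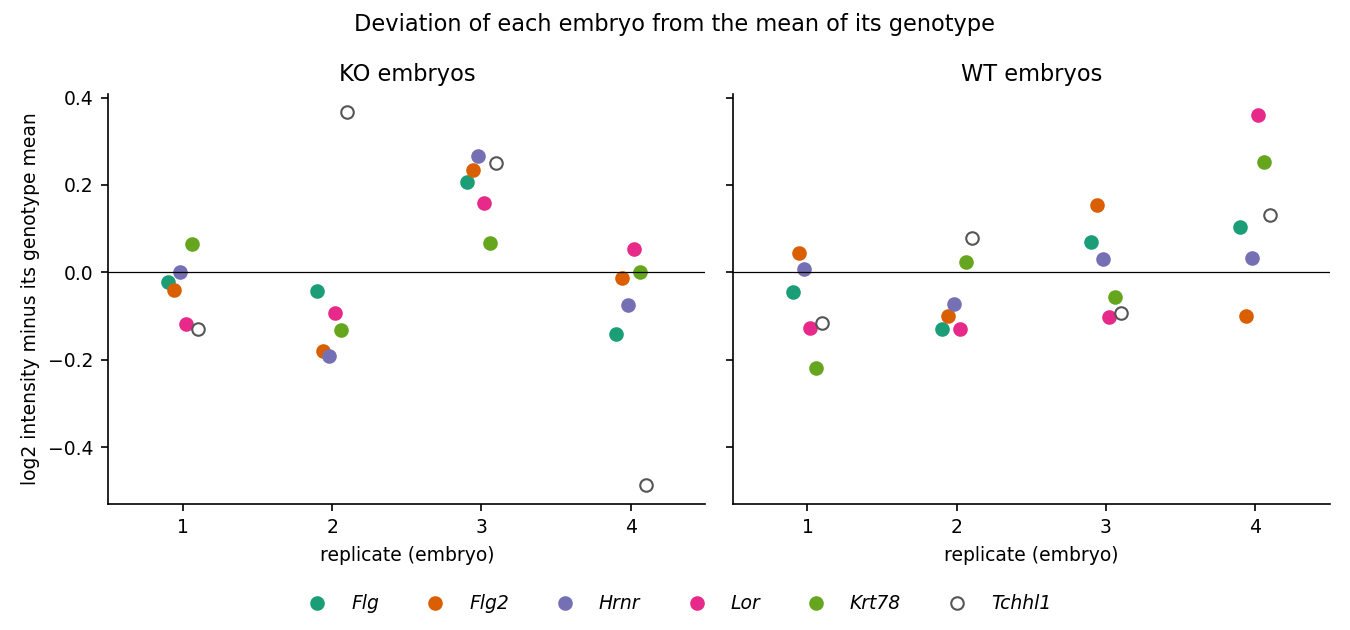
Log2 intensity of each gene minus the mean of its genotype (vertical axis) in each KO (left) and WT (right) embryo. KO replicate 3 lies above its genotype mean in all 6 genes, and WT replicate 4 is 0.36 above it for Lor and 0.25 for Krt78.

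Likeness between genes was measured as Pearson's r over the 8 arrays after each value had its genotype mean subtracted, which leaves 6 degrees of freedom and is given as a description. Hrnr ran closest to Flg2 (r = 0.84) and Flg (0.81), and Flg with Flg2 gave 0.60. These are the 3 genes that lie side by side on chromosome 3. Lor ran closest to Krt78 (0.77), on another chromosome, while Flg2 gave 0.08 with Lor and −0.07 with Krt78. For both Lor and Krt78 the largest deviation was that of WT replicate 4, at 0.36 and 0.25. Their r without that embryo was not computed. Over the 10 pairs of the 5 lower genes the median was 0.51, beside 0.01 over all pairs of the 5080 named genes, whose middle 50% ran from −0.30 to 0.33. Tchhl1 gave −0.14 to 0.50 with the other 5.

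The likeness of the filaggrin-type genes rested in part on the arrays that stood apart. Without KO replicate 3 and WT replicate 1, an alternative added once the data were known, r was 0.17 for Flg with Flg2, 0.49 for Flg with Hrnr and 0.59 for Flg2 with Hrnr. For Lor with Krt78 it was 0.78, with WT replicate 4 kept. The median over the 10 pairs of the 5 lower genes was then 0.35, with a lowest value of −0.28, and lay inside the middle 50% of all pairs of named genes, −0.40 to 0.42. Tchhl1 gave −0.70 to 0.27 with the other 5, with Flg2 at −0.70 and Hrnr at −0.59. With all 8 arrays, centred on their medians, r was 0.65 for Flg with Flg2, 0.83 for Flg with Hrnr, 0.85 for Flg2 with Hrnr and 0.81 for Lor with Krt78.

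Outside the 6, the named genes most like Flg by the same measure were Zfp712 (r = 0.97), Nxph4 (0.96) and Cldn13 (0.95), and those most like Flg2 were Zkscan1 (0.99), Gm17638 (0.97) and Olfr1006 (0.96). Hrnr was nearest to Gm21129 (0.97), Gm25199 (0.96) and 1700016D06Rik (0.94), and Lor to Gm5142 (0.97), LOC102640896 (0.96) and 6430573F11Rik (0.94). Krt78 was nearest to Npn2 (0.97), C330006A16Rik (0.94) and Lrrc28 (0.94), and Tchhl1 to Gm15606 (0.94), Acad10 (0.93) and Vma21 (0.92). None of these 18 was in a fixed list, and 6 to 12 named genes reached r over 0.9 with each of the 6. The 18 were picked as the highest values over all named genes. The share of all pairs with r over 0.9 was not computed, so nothing is read from these likenesses.

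Flg, Flg2, Hrnr, Lor and Tchhl1 lie in the epidermal differentiation complex on chromosome 3, which gathers the genes of the envelope and of the S100 proteins. In the RefSeq order of GRCm38.p6, Flg2, Flg and Hrnr are direct neighbours among protein-coding genes. Beyond Hrnr, Rptn and Tchh, 2 further fused S100-type genes not named in the authors' deposited table, separate it from Tchhl1, so the direction changed across that interval. On the other side of Flg2, past Tdpoz8 and Crnn, the nearest named gene was Lce1m, which fell by 1.87 on the log2 scale (adjusted p = 0.000326, limma). Past Tchhl1 and S100a11, which was not named, S100a10, a calcium-binding protein partner of annexins, rose by 0.62 ± 0.13 (SE; adjusted p = 0.0101, limma).

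Lor lies apart from them in the same complex. Its direct neighbour Prr9, a proline-rich protein gene, rose by 1.44 ± 0.28 (SE; adjusted p = 0.00681, limma), opposite to Lor. On its other side the nearest named gene, 9130204L05Rik, rose by 0.64 ± 0.13 (SE; adjusted p = 0.00936, limma). From S100a1 to S100a10 the complex held 70 protein-coding genes in RefSeq, of which 43 were named, and with 2 other named genes 23 were higher and 22 lower, the 5 genes described here included. Krt78 lies in the type II keratin cluster of chromosome 15, where its direct neighbour Krt8, a keratin of simple epithelia, rose by 1.01 ± 0.11 (SE; adjusted p = 0.000613, limma). On its other side Krt79, Krt4, Krt76, Krt77, Krt1 and Krt2 were not named, and the next named gene was Krt73, which rose as deposited by 1.08 ± 0.31 (adjusted p = 0.0333, limma) and missed the threshold in 8 alternatives.

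**Figure D4:**
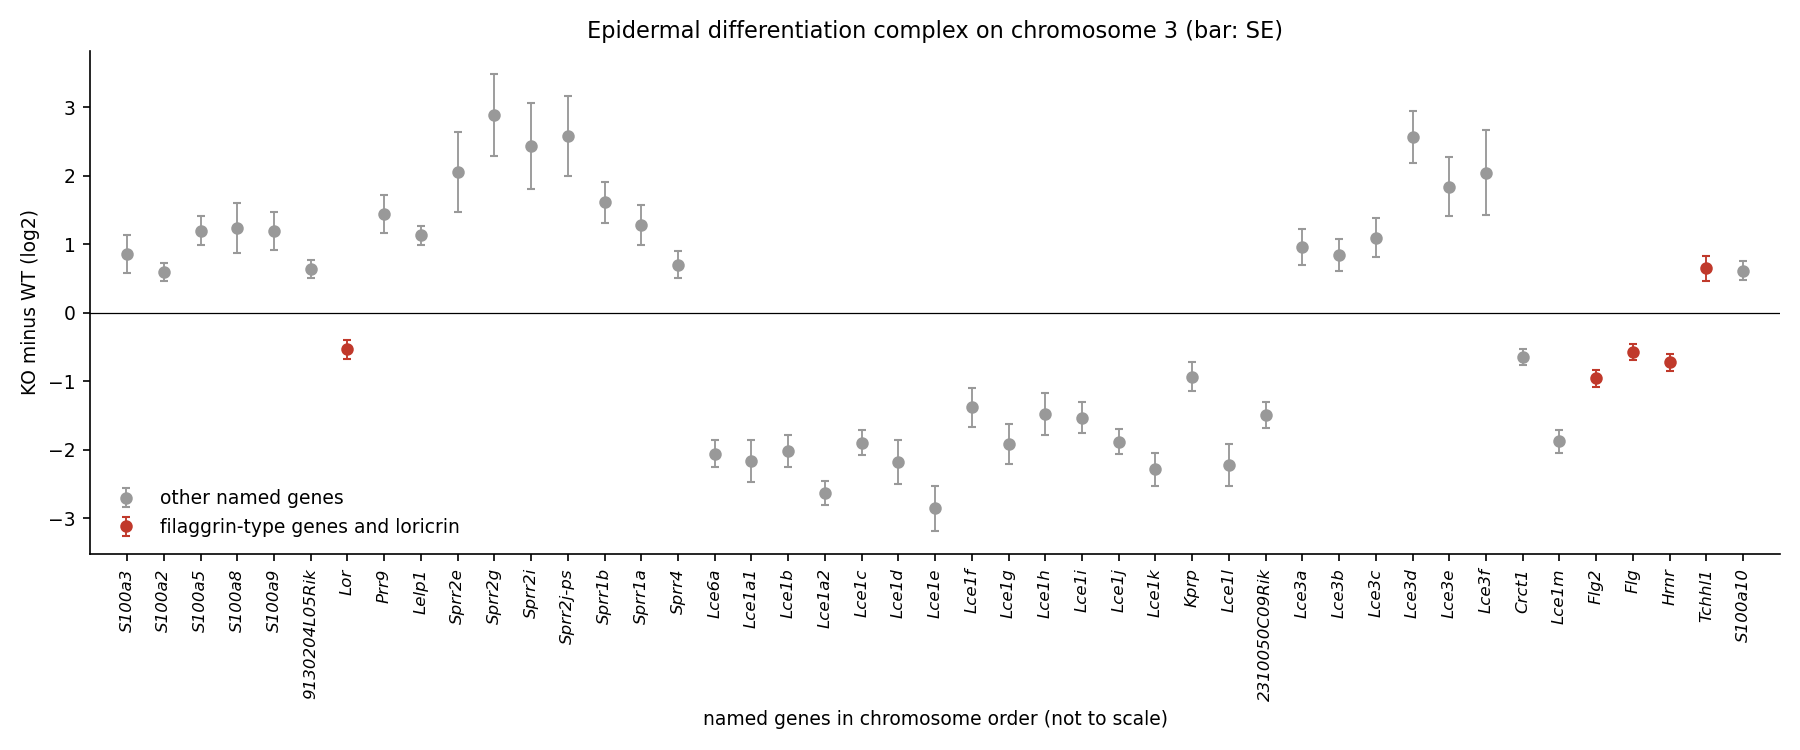
KO minus WT difference in log2 intensity with its SE (vertical axis) of the 45 named genes of the complex in chromosome order (horizontal axis, not to scale). Flg2, Flg and Hrnr lie side by side at −0.95, −0.57 and −0.72, Tchhl1 follows at 0.65, and Lor at −0.53 lies between genes that were higher.

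Of the 7 genes of the fused S100-type family, Rptn, Tchh and Crnn have no entry in the authors' deposited table, which means that they did not meet its criteria, were not measured or carry no symbol there. For the genes around the family, counts are of genes that passed an adjusted p under 0.05 in limma and carried a name. They are given beside 15.2% of all probe sets higher and 6.08% lower at that threshold. At the authors' criteria, which every named gene also met, the shares were 11.8% and 4.40%. The lists were chosen with earlier results of these data known, so no enrichment is read from a share. A gene is called lost in an alternative that kept it but did not give it an adjusted p under 0.05. Removal by the filter on low signal is not counted as a loss.

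Among 27 genes for the processing and breakdown of filaggrin, 5 rose, 2 fell and 20 were not named. Kprp, a proline-rich keratinocyte protein, fell by 0.93 on the log2 scale, with a KO mean of 10.76 ± 0.36 and a WT mean of 11.69 ± 0.36 (SD, n = 4 each; adjusted p = 0.0137, limma; lost in 1 alternative). The peptidylarginine deiminases, which turn arginines of filaggrin and keratins into citrulline, went both ways. Padi2 fell by 0.74 (adjusted p = 0.0335, limma; lost in 9 alternatives), while Padi3 (0.70, adjusted p = 0.0227; lost in 5) and Padi4 (0.70, adjusted p = 0.00442) rose. The other 3 that rose were named after their values were seen: the membrane protease matriptase St14 (0.68 ± 0.13, SE), the kallikrein protease Klk14 (0.64 ± 0.12), and Furin (0.71 ± 0.20), a protease known to cut profilaggrin, which was lost in 9 alternatives. Padi4 (KO mean 4.25, WT mean 3.55) and Klk14 (3.87 and 3.23) had low signal, below the median of all probe sets, 4.76. The filter on low signal removed both. The protease caspase-14 (Casp14), which helps degrade filaggrin, and Asprv1, Blmh and Hal were among those not named.

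Of 65 genes of cross-linking enzymes and other envelope proteins, 18 rose and 18 fell, shares of 27.7% each. The 4 with the largest changes and no overlap were Sprr2g (2.89 ± 0.60, SE; adjusted p = 0.0087, lost in 1 alternative), Lce1e (−2.85 ± 0.33; adjusted p = 0.000701), Lce1a2 (−2.63 ± 0.18; adjusted p = 0.000153) and Lce3d (2.57 ± 0.38; adjusted p = 0.00198), all by limma. RefSeq lists Sprr2g as a transcribed pseudogene. The probes of the Lce and Sprr2 families may bind transcripts of their close copies, which was not measured. Without variance moderation 6 of the list rose.

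Of 30 keratins listed as epidermal and mucosal, 6 rose and 2 fell, the latter being Krt78 itself and Krt23. Krt23, a type I keratin, read 8.35, 8.19, 8.33 and 8.35 on the KO arrays and 9.24, 9.63, 9.15 and 9.42 on the WT arrays, and fell by 1.06 on the log2 scale (adjusted p = 0.000865, limma). Krt18, the partner of Krt8, rose by 1.94 ± 0.40 (SE; adjusted p = 0.00809, limma; lost in 1 alternative). Krt83, a hair keratin that the list also holds, rose by 0.88 ± 0.22 (adjusted p = 0.0196, limma; lost in 2). Its signal was low, with means of 4.29 in KO and 3.41 in WT skin, and the filter on low signal removed it. The major keratins Krt1, Krt10, Krt5 and Krt14 were not named. After centring, 3 keratins rose.

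Of 53 transcription regulators of late differentiation, 11 rose and 2 fell. The zinc finger factor Ovol1, known in human keratinocytes to raise filaggrin and loricrin, rose by 0.94 ± 0.22 (SE; adjusted p = 0.0134, limma; lost in 1 alternative), and the Notch target Hes1 by 0.78 ± 0.14 (adjusted p = 0.00466). Gata3, which acts in epidermal barrier formation and in the hair inner root sheath, fell by 0.90 (adjusted p = 0.00105, limma), with KO values of 8.18 to 8.33 and WT values of 8.95 to 9.31. The homeobox gene Dlx5 fell by 0.71 (adjusted p = 0.0213, limma; lost in 3 alternatives). Of the AP-1 subunits in the list, named after their values were seen, Fosl1 (2.01 ± 0.45, SE; adjusted p = 0.0125) and Junb (0.69 ± 0.17; adjusted p = 0.0179) rose by limma, each lost in 1 alternative and the former with overlapping groups, and Jun, Jund, Fos, Fosb and Fosl2 were not named.

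Of 34 cytokines, growth factors and receptors studied as regulators of filaggrin and loricrin, 18 rose and 2 fell, or 52.9% higher. The largest changes with no overlap were those of the inflammatory cytokine Il1b (2.97 ± 0.28, SE; adjusted p = 0.000354), the EGFR ligands Epgn (2.59 ± 0.53; adjusted p = 0.00807, lost in 1 alternative) and Areg (2.46 ± 0.36; adjusted p = 0.00181), and Il24 (2.24 ± 0.46; adjusted p = 0.00851, lost in 1), all by limma. Il4 and Il13, known in cultured human keratinocytes to lower filaggrin and loricrin and named after their values were seen, rose by 0.56 ± 0.12 (adjusted p = 0.0109) and 0.66 ± 0.15 (adjusted p = 0.0116) by limma. The signal of Il4 was low, at 3.21 to 3.43 in WT embryos and at most 4.0 in KO embryos, below the median of all probe sets. The 2 that fell were Il18 (−0.79 ± 0.20, lost in 3 alternatives) and Ifng (−0.51 ± 0.15, lost in 8). Ifng was low in signal as well, with means of 3.43 in KO and 3.94 in WT skin. The filter on low signal removed both Il4 and Ifng. How these levels bear on the 6 genes was not tested.

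Of 26 hair follicle genes, 8 rose and 1, Gata3, fell. The list covers the inner root sheath and medulla, where trichohyalin is made, and also genes of other hair shaft layers, such as Krt33a and Krtap8-1. Krt72 rose by 1.59 ± 0.24 (SE; adjusted p = 0.00221), Krtap8-1 by 1.38 ± 0.37 (adjusted p = 0.0252, lost in 3 alternatives) and Krt33a by 0.99 ± 0.14 (adjusted p = 0.00146), all by limma. Krt72 (KO mean 5.25, WT mean 3.66) and Krtap8-1 (3.96 and 2.58) had low signal, and the filter on low signal removed both. Without WT replicate 3, 3 rose, and without both arrays that stood apart, 4. The 8 were counted because they rose, and Tchhl1 was chosen as changed, so nothing is read from their shared direction. Padi3, given above, is among the 8. Their part in the value of Tchhl1 was not tested.

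Markers listed for other cells could be read only where the authors' deposited table named them. That table was chosen on KO minus WT, so every named marker, and each sum below, differed by selection. At the authors' criteria 11.8% of all probe sets were higher and 4.40% lower. No shift of a cell type is read from these counts. Of 8 leukocyte markers 5 were named, Cd74, Lyz2, Cd14, S100a8 and S100a9, and all 5 rose. Their summed intensity on the linear scale was 495 to 715 in KO and 274 to 385 in WT skin. Ptprc, Csf1r and Itgam were not named. S100a8 and S100a9 lie in the epidermal differentiation complex, and which cells gave the signal of these 5 was not tested. Of 7 inner root sheath markers 3 rose, with sums of 614 to 1079 and 223 to 667, which overlapped. Of 8 granular keratinocyte markers 3 were named, Cdsn, Flg and Lor, all lower. Cdsn was the targeted gene, and Flg and Lor were among the 6 chosen for their change. No other granular marker was read. None of the 7 basal, 6 spinous or 6 fibroblast markers was named, so their levels were not read and the share of the epidermis in the RNA could not be gauged from them. Of the endothelial, muscle and erythroid markers 1 each of 5, 6 and 5 rose, and of 5 melanocyte markers 2. The part of cell composition in the values of the 6 genes was not tested.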

How the data were processed

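Total RNA from 8 skins was read on the Affymetrix Gene Mouse 2.0 ST array, per the file headers, and RMA is named in the submitters' processing notes; the sources used here do not give its version, its settings or the genome build. As deposited, each array has 1 log2 intensity for every probe set. The authors' deposited table gives each genotype's mean log2 intensity, the fold change as a linear ratio, its log2, and p-values and Benjamini-Hochberg adjusted p-values, and its probe-count and annotation-class columns were copied as deposited. Depth does not apply to arrays, and their number, 4 for each genotype, limits the precision.

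The log2 values were used as deposited with limma 3.58.1 under R 4.3.3, by lmFit and eBayes, unpaired and without covariates, adjusted over all 33793 probe sets, threshold 0.05. The fit was tested on simulated data. Differences are KO minus WT. Names exist only for probe sets of the authors' table; where a gene had several, the one with the highest mean was used. The 6 genes, the 7 lists and the 10 marker lists were chosen with earlier results of these data known. In each list the 4 largest changes past the threshold with no overlap were named, and for each of the 6 genes the 3 most alike. The alternatives were 3 scalings, 3 treatments of variance or array weight, a filter on low signal, a replicate block, each array left out and, added later, both arrays that stood apart left out. Motifs were searched in 250 bases before each RefSeq start. The planned protein comparison was not made, and a mean over several probe sets did not arise for the 6 genes.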

Additional observations from a re-analysis of the deposited data

Results flagged for a closer look

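Of the 12 groups of 4 values, 1 held a value far from the others. Lor read 13.05 in WT replicate 4, while the other 3 WT embryos read 12.56 to 12.59, so that the gap took up 0.945 of the range, above Dixon's 95% critical value for 4 samples. Chance flags about 1 in 20 such groups. Without that embryo the KO minus WT difference of Lor was −0.41, below the size limit of 0.5 by which the authors' deposited table was chosen. It was also below that limit without KO replicate 1, at −0.49, and, by a narrow margin, without KO replicate 2, at −0.4997.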

How the results depend on the processing

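All 6 genes kept their direction in every alternative run. The differences moved by more than the SD pooled over both genotypes, though by less than the larger of the SDs of the genotypes, for Flg under cyclic loess (−0.70), and for Flg2 (−1.10) and Krt78 (−0.82) under quantile normalization. Leaving out 1 array gave −0.64 to −0.53 for Flg, −1.03 to −0.89 for Flg2, −0.81 to −0.66 for Hrnr, −0.58 to −0.41 for Lor, −0.73 to −0.58 for Krt78 and 0.53 to 0.81 for Tchhl1, which the filter on low signal removed. For the calls that changed the cause was not tested, except that the filter tests fewer probe sets and leaving out arrays uses fewer samples.

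Over all probe sets, rises numbered 2965 after centring, 3229 after quantile normalization, 3227 after cyclic loess and 2419 with low probe sets left out, and 3486 to 4604 with 1 array left out. Falls numbered 3169, 3165 and 879 under the last 3 of these settings, 1335 to 1820 with 1 array left out and 1358 without the pair of arrays standing apart. In the fused S100-type list the 1 rise, Tchhl1, became 0 after centring, quantile normalization, cyclic loess, without moderation, under the low-signal filter and without the pair of arrays standing apart, and 0 to 1 with 1 array left out.

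In the filaggrin processing list, rises were 3 without moderation and with low probe sets left out, and 3 to 5 with 1 array left out; falls were 0 without moderation, 1 without both arrays that stood apart and 1 to 2 with 1 array left out. Envelope rises were 6 without moderation and 9 to 17 with 1 array left out (10 without KO replicate 2, 9 without KO replicate 4, 10 without WT replicate 3). Keratin rises were 3 under each of the 3 scalings, under the low-signal filter and without the pair of arrays standing apart, 2 without moderation and 3 to 6 with 1 array left out (3 without KO replicate 1 or WT replicate 3). Regulator rises were 4 and falls 1 without moderation, with 1 to 2 falls when 1 array was left out. Hair rises were 3 without moderation, 4 without both arrays that stood apart and 3 to 8 with 1 array left out (5 without KO replicate 2 or 3, 4 without KO replicate 4, 3 without WT replicate 3). Cytokine rises were 11 and falls 0 without moderation, and falls were 1 with low probe sets or both arrays that stood apart left out and 0 to 2 with 1 array left out.

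The same replicate numbers occur in both genotypes, but the labels give them no shared litter or day. Deviations of same-numbered arrays correlated at −0.03, 0.14, 0.23 and 0.01, so the numbers were not taken as pairs. With the replicate number as a block, 4524 probe sets rose and 1726 fell, and 1 fell in each of the filaggrin processing, regulator and cytokine lists.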
